A study of Saccharomyces cerevisiae with 8 samples.

Results

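In growing, untreated yeast the transcription factors TFIIIC and TFIIIB were compared along the genome, by setting the array of the TFIIIC subunit Tau95 against the arrays of the TFIIIB subunits Bdp1 and Brf1. These are 3 of the 8 deposited samples, called arrays here. Each array was centred on its median over all features, the TFIIIB value of a feature is the mean of its Bdp1 and Brf1 values, and the difference is the Tau95 value minus the TFIIIB value, on the log2 scale. A difference could be formed at 6023 of the 6399 features, which are intergenic regions. A difference of 1 is a 2-fold ratio and was used as the limit for counts.

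The cells were Saccharomyces cerevisiae with a 13myc tag on Brf1, Bdp1 or Tau95, grown in rich YPD medium to exponential phase and not treated. Chromatin was immunoprecipitated through the tag, and each array carried a Cy5 channel with DNA from the wild type and a Cy3 channel with DNA from a strain that lacks MAF1, whose product represses Pol III transcription. The labels do not say which of these strains gave the deposited values or what they were divided by, so the values are called Tau95, Bdp1, Brf1 and C160 values with no strain. The same proteins after 30 min of rapamycin at 0.2 ng per µl, and the HA-tagged polymerase subunit C160 at 0 min, are given beside some results, since the difference does not use those arrays.

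As background, RNA polymerase III (Pol III) makes tRNA, 5S ribosomal RNA and a few other small RNAs. On a tRNA gene TFIIIC binds the A box and B box inside the transcribed sequence and places TFIIIB upstream of the start. TFIIIB, made of the TATA-binding protein, Brf1 and Bdp1, then recruits the polymerase and can direct repeated rounds of transcription. Yeast also has a small number of loci, called ETC (extra TFIIIC) sites, that bind TFIIIC without the rest of the machinery.

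Values were given for 6278 features on the Tau95 array, 6028 on the Bdp1 array and 6277 on the Brf1 array. With 1 deposited array per protein, which may combine several experiments, there is no replicate check on any difference and no p-value. The nearest gauge of array error is the gap between the TFIIIB subunits themselves. Bdp1 minus Brf1 had an SD over features of 0.83 at Pol III features and 0.64 at features away from tRNA genes and long terminal repeats (LTRs). At 5.76% of 6025 features Bdp1 was above Brf1 by 1 or more, and at 8.18% it was below by as much. The difference averages these subunits, and its SD was 0.65 at Pol III features and 0.53 at the others. Precipitation yields of different proteins share no common scale, so a difference places features relative to each other and gives no ratio of molecules. Nor does it separate the share of cells in which a site is bound from how tightly it is bound.

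Tau95 lagged TFIIIB at nearly all features named for genes of Pol III. Since features are intergenic regions, one named for a Pol III gene may hold the region beside the gene and not the gene itself. Below, a named Pol III gene stands for the feature of that name. The 251 Pol III features with a value, of 257 named for tRNA genes or other Pol III genes, had a median TFIIIB value of 3.16, with 3.18 for Bdp1 and 3.07 for Brf1. Their median Tau95 value was 1.96. The median difference was -1.05 (quartiles -1.48 and -0.72), so that relative to the median feature of each array TFIIIB signal was 2.07 times Tau95 signal. The difference was below zero at 239 of the 251 (95.2%), where 57.8% of all 6023 features were below zero. It was -1 or less at 137 (54.6%), against 6.69% of all features, and 1 or more at 1 feature, against 3.6%. Set against the subunits one by one, Tau95 minus Bdp1 had a median of -1.17 and Tau95 minus Brf1 a median of -1.03. At 84 Pol III features Tau95 stood below each subunit by 1 or more, against 3.74% of all features. The polymerase stood close to TFIIIB, and C160 minus TFIIIB had a median of -0.11 at the same features.

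**Figure D1:**
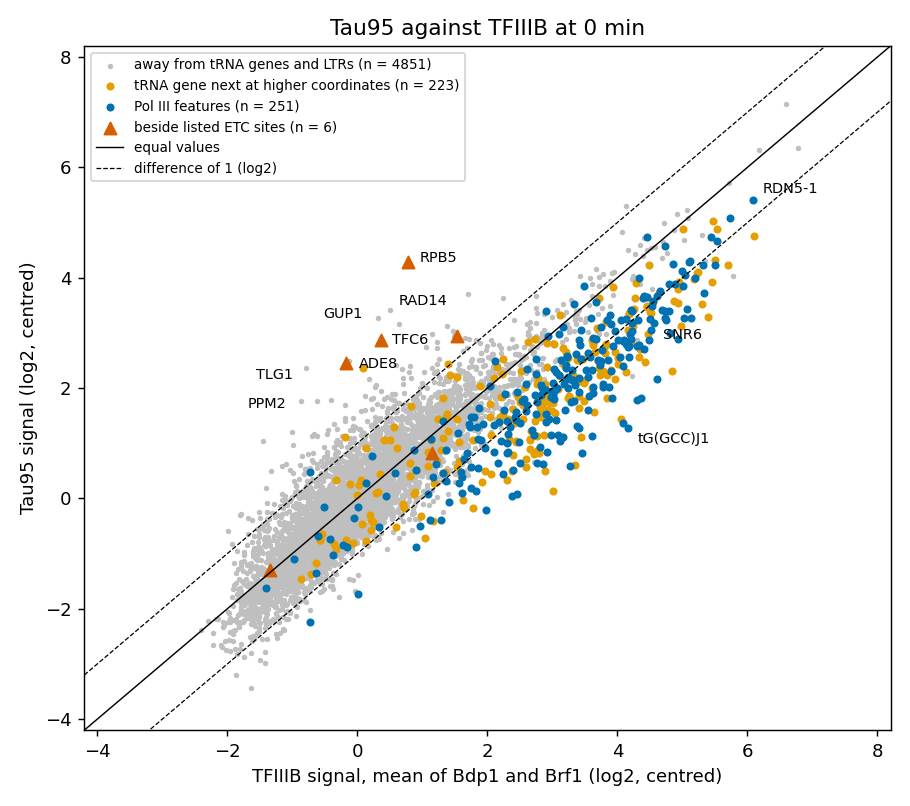
Each point is a feature, with its TFIIIB value (mean of the centred log2 values of Bdp1 and Brf1) on the x axis and its Tau95 value on the y axis, at 0 min. The solid line marks equal values and the dashed lines a difference of 1 in either direction. Pol III features and regions beside tRNA genes form a band below the line, with a Pol III median of -1.05, while a few regions, with RPB5 the farthest at 3.50, lie far above it.

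Equally bright features away from tRNA genes and LTRs did not lag in this way, while regions with a tRNA gene next did. Among features with a TFIIIB value of 3 or more, 140 Pol III features had a median difference of -1.17 (quartiles -1.55 and -0.82), and 137 of them were below zero. The 84 features of that brightness away from tRNA genes and long terminal repeats had a median of -0.06 (quartiles -0.33 and 0.16), and 50 of them were below zero. These 84 still hold repeated sequence, such as reading frames of subtelomeric and Ty elements. The 41 of them named for a gene with a name of its own, over 30 kb from the first and last gene of a chromosome, a choice made after seeing the data, had a median of -0.18 (quartiles -0.33 and 0.03), and 29 were below zero. Regions with a tRNA gene next had medians of -1.20 at a TFIIIB value of 3 to 4 (n = 50), -1.13 at 4 to 5 (n = 30) and -1.20 at 5 and over (n = 12). At the 140 and the 84 features the TFIIIB medians were close, at 3.90 and 3.72, while the Tau95 medians were 2.77 and 3.68. At Pol III features the median difference was -0.31 where TFIIIB was below 0 (n = 12), -0.86 from 1 to 2 (n = 33), -1.12 from 3 to 4 (n = 74) and -1.08 at 5 and over (n = 15). From a TFIIIB value of 2 upward the median at Pol III features was between -1.04 and -1.24 in each step of 1. The TFIIIB value that sets these steps is also subtracted in the difference. Error in that value lowers differences at high steps and raises them at low steps, and the trend over steps was not separated from this. The contrast between groups sets features chosen by the same rule against each other. That rule took 140 of 251 Pol III features but 84 of 4851 features away from tRNA genes and long terminal repeats. The effect of error may therefore differ between the groups, and this was not tested. Across the 251 Pol III features Tau95 and TFIIIB values correlated with Pearson's r of 0.89, C160 and TFIIIB with 0.94, and Bdp1 and Brf1 with 0.86. These are descriptions across features that share probes and arrays.

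**Figure D2:**
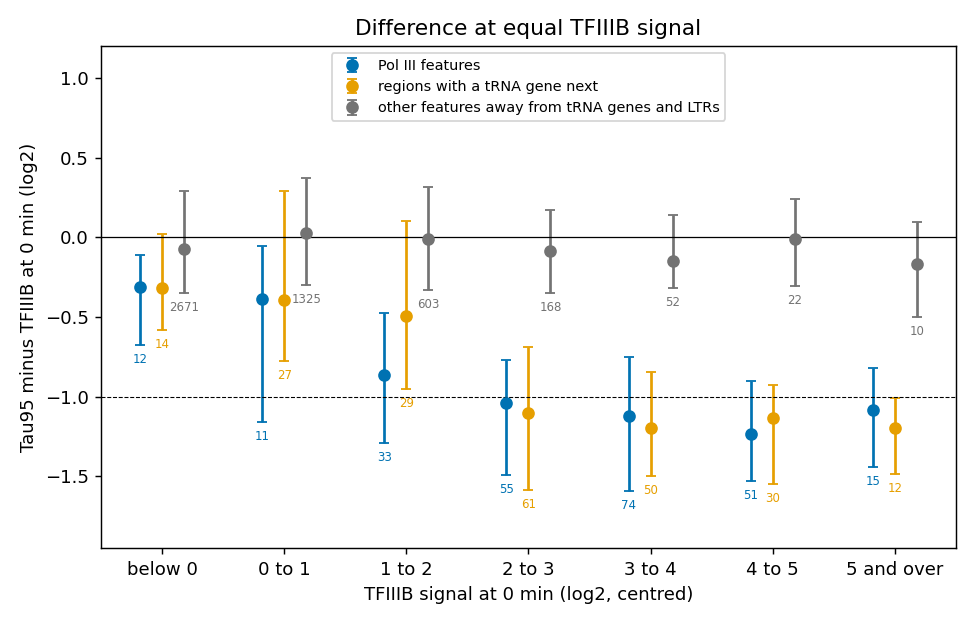
The x axis bins features by TFIIIB value at 0 min and the y axis gives the difference, Tau95 minus TFIIIB, as the median (point) and quartiles (bars), with the number of features under each bar, for Pol III features, regions with a tRNA gene next and features away from tRNA genes and long terminal repeats. In the bins from a TFIIIB value of 2 upward the medians of Pol III features lie between -1.04 and -1.24, and those of features away from tRNA genes and long terminal repeats between -0.17 and -0.01.

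The lowest differences among tRNA genes came with TFIIIB signal well above its array median and Tau95 values from 0.05 to 2.17. A tRNA feature is named for the amino acid, the anticodon in brackets and the chromosome letter. The glycine gene feature tG(GCC)J1 had a Tau95 value of 1.27, a Bdp1 value of 4.0 and a Brf1 value of 4.33, a difference of -2.89. For the isoleucine gene tI(AAU)I1 these were 1.37, 3.73 and 4.45, with a difference of -2.72. The arginine gene tR(ACG)K had 0.59 for Tau95, 3.51 for Bdp1 and 3.03 for Brf1, a difference of -2.68. At each of these features C160 was above Tau95, at 2.29, 3.13 and 2.85, but also below TFIIIB, with C160 minus TFIIIB at -1.88, -0.95 and -0.42. Another arginine gene, tR(UCU)G2, had a Tau95 value of 0.83 beside 2.95 for Bdp1 and 3.97 for Brf1, and its difference was -2.63. The alanine gene tA(AGC)F had 1.82, 4.53 and 4.21 for Tau95, Bdp1 and Brf1, a difference of -2.55. At tS(UGA)E-0, a serine gene feature, the subunits parted, with Bdp1 at 5.69 and Brf1 at 2.93, so its difference of -2.52 rests on Bdp1 more than on Brf1. The next were the lysine gene tK(CUU)M at -2.49, the leucine genes tL(CAA)G2 at -2.44 and tL(CAA)K at -2.38, and the lysine gene tK(UUU)K at -2.33. Tau95 values at tL(CAA)K and tK(UUU)K were 0.08 and 0.05, close to the median of the whole array.

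A few tRNA genes had as much Tau95 signal as TFIIIB signal. The phenylalanine gene tF(GAA)N had 3.39 for Tau95, 2.69 for Bdp1 and 3.11 for Brf1, a difference of 0.49. The leucine gene tL(CAA)N had 3.85, 3.40 and 3.58, with a difference of 0.36. The isoleucine gene tI(AAU)N1, bright for all proteins, had 4.73, 3.86 and 5.06, with a difference of 0.27. These gaps are small beside the SD of 0.83 between the TFIIIB subunits. With arrays scaled to equal spread they turned below zero, to -0.07, -0.27 and -0.59, and with quantile normalization they rose to 1.18, 1.13 and 0.88. The proline gene tP(UGG)O1 had a difference of 0.37, the tyrosine gene tY(GUA)J2 0.20, and the threonine gene tT(UGU)H 0.09. The other features at this end were dim for TFIIIB: tW(CCA)K-1 at 1.22, tV(AAC)K1-1 at 0.54, tP(AGG)N at 0.36 and tS(GCU)F at 0.15 had Bdp1 values of -1.45, 0.65, -0.95 and -0.39. The sole Pol III feature past the limit upward, tW(CCA)K-1, is a second part of a region, and the first part, tW(CCA)K-0, had a difference of -0.91. Next to the limit downward, tP(UGG)L-0 and tK(CUU)G1 lay inside at -1.01 each, and tQ(UUG)D1 and tE(CUC)D-0 outside at -0.9977 and -0.99.

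The lag ran through all 20 amino acid families, whose medians were below zero without exception and -1 or less in 12. Tyrosine genes had the lowest median, -1.81 (n = 8), with a Tau95 median of 0.99 and a TFIIIB median of 2.79. Of these, 7 were at -1 or less, from tY(GUA)M1 at -2.18 to tY(GUA)O at -1.18, while tY(GUA)J2 stood apart at 0.20. Phenylalanine genes followed at -1.42 (n = 10), where 9 were at -1 or less, from tF(GAA)F at -2.12 to tF(GAA)B at -1.09, and tF(GAA)N was the exception. Lysine genes had -1.33 (n = 19) and arginine genes -1.32 (n = 15). At the other end were proline genes at -0.73 (n = 12), tryptophan genes at -0.79 (n = 6), glutamine genes at -0.83 (n = 10) and serine genes at -0.86 (n = 16). Proline genes ranged from tP(UGG)F at -1.79 to tP(UGG)O1 at 0.37, and 3 of them were at -1 or less. The spread inside families was wide against the gaps between their medians. Of the 10 tRNA types that carry an intron, which lies between the A box and the B box, S(CGA) had no feature with a difference. The others had a median of -1.08 (n = 56), and types without an intron -1.05 (n = 189). Leucine and serine genes, whose tRNAs have a long variable arm that sets the boxes farther apart, had -0.90 (n = 35) against -1.09 (n = 210) for the rest, a gap smaller than either group's quartile range.

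**Figure D3:**
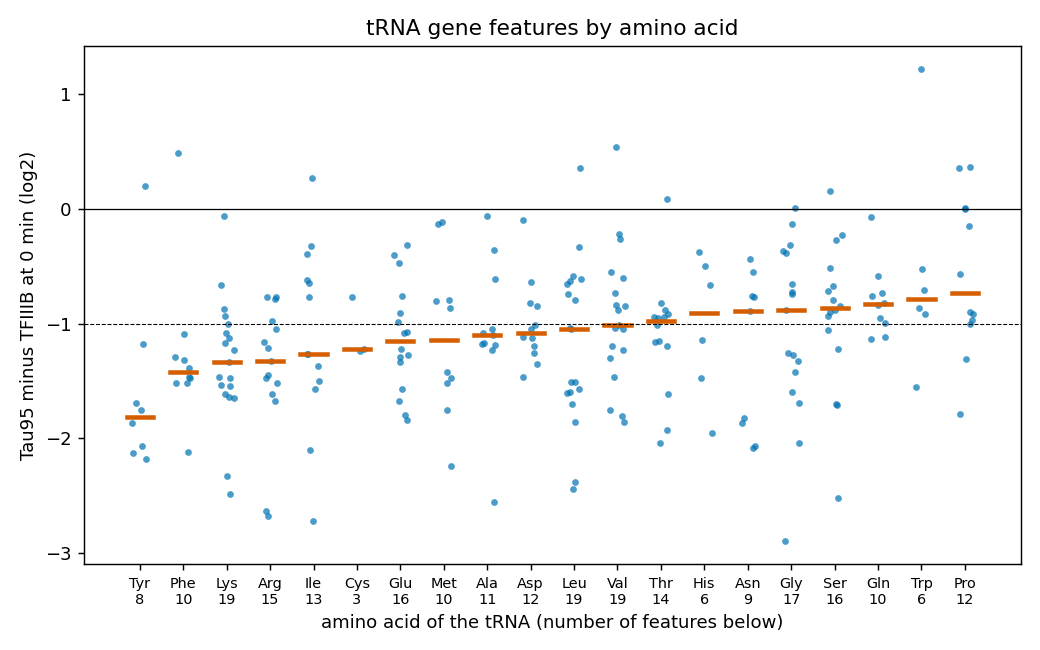
Points are tRNA gene features by the amino acid of their tRNA, with the difference, Tau95 minus TFIIIB at 0 min (log2), on the y axis and bars at the family medians. All 20 medians lie below zero, from -1.81 for tyrosine to -0.73 for proline, and most families hold features on either side of -1.

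Pol III genes other than tRNA genes had a median of -0.50 over the 6 with a value. This median moved with the setting, to -0.92 with arrays scaled to equal spread, -0.85 with Brf1 alone, -0.77 where the arrays averaged 1 or more, -0.33 with quantile normalization and -0.32 with Bdp1 alone, so its size against that of tRNA genes is uncertain. SNR6 makes the U6 spliceosomal RNA, and its feature had a Tau95 value of 3.18, a Bdp1 value of 5.09 and a Brf1 value of 4.03, a difference of -1.38. SCR1 encodes the RNA part of the particle that targets secreted proteins, and its feature had 1.06, 1.79 and 2.01, a difference of -0.84, and its C160 value of 3.30 was above all of them. RPR1, for the RNA of the enzyme that trims tRNA 5′ ends, had 2.52, 2.33 and 3.16, a difference of -0.22, with Tau95 between the subunits. RDN5-1, a 5S ribosomal RNA gene, where TFIIIA brings in TFIIIC, was bright throughout at 5.41, 5.90 and 6.28 for Tau95, Bdp1 and Brf1, with a difference of -0.69. RDN5-2 and RDN5-3 were dim, with TFIIIB subunits between -0.73 and 0.77 and differences of -0.17 and -0.31. The SNR52 feature had no Bdp1 value and so no difference, with -1.25 for Tau95 and -0.85 for Brf1. The other 5 Pol III features without a difference lacked all 3 values.

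Regions beside tRNA genes showed the same lag. A feature named for an open reading frame is the region on its side of higher coordinates, and the gene table gave 223 such features, with a value, whose next gene there is a tRNA gene. Their median Tau95 value was 1.73, their median TFIIIB value 2.77 and their median difference -0.91, with 104 (46.6%) at -1 or less, against 6.69% of all features. Features with a tRNA gene on the lower side alone do not border it, because their own reading frame lies between. They had a median of -0.17 (n = 191) and 7 (3.66%) at -1 or less, under the share of all features. The lowest region overall lay beside MSH4, a meiotic crossover gene, with 0.14 for Tau95, 2.54 for Bdp1 and 3.47 for Brf1, a difference of -2.87. Beside SEC7, a factor of Golgi transport, the values were 0.60, 3.49 and 3.21, a difference of -2.75. Next came RAD30, a translesion DNA polymerase, at -2.61, TCB1 at -2.52, TIM10, a mitochondrial import chaperone, at -2.40, COG2 at -2.32 and PHO23 at -2.10, and each has a tRNA gene next. The delta repeat YELCDELTA4 had -2.34, and the regions of YCR062W and YIL015C-A, which the gene table does not hold, -2.22 and -2.08. Of all 266 features outside the Pol III class at -1 or less, 104 had a tRNA gene next, 64 were long terminal repeats, 7 had a tRNA gene on the lower side, 10 were named for a reading frame absent from the gene table and 81 were of none of these kinds. At the limit itself, BCK1 and ORC2-0 lay inside at -1.0003 and -1.0039, and YGLWDELTA7 and YJLWDELTA15 outside at -0.9996 and -0.9991.

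The strand of the neighbouring tRNA gene, read from the last letter of its locus tag, splits these regions into 5′ flanks, where TFIIIB is known to sit, and 3′ flanks. The 5′ flanks had a median difference of -0.73 (quartiles -1.14 and -0.20, n = 109) and the 3′ flanks -1.16 (quartiles -1.55 and -0.74, n = 114). TFIIIB had medians of 2.49 at 5′ flanks and 2.81 at 3′ flanks, and Tau95 1.75 and 1.67. The gap of 0.43 between the flanks was 0.24 among regions with a TFIIIB value of 2 or more. It changed with the distance between reading frame and tRNA gene in the gene table. Within 300 bp the medians were -0.74 (n = 11) and -1.18 (n = 56), and over 300 and up to 500 bp -1.01 (n = 10) and -1.29 (n = 28). Over 500 and up to 1000 bp the order turned, at -1.23 (n = 33) and -1.15 (n = 18). Over 1000 bp, where 55 of the 5′ flanks but 12 of the 3′ flanks fall, the medians were -0.38 and -1.0, and TFIIIB itself was low at those 5′ flanks, at 1.37. The gene table holds no long terminal repeats, which are often inserted upstream of tRNA genes, so some of these regions do not border the tRNA gene directly. Brf1 and Bdp1 also parted by distance: Bdp1 minus Brf1 had a median of -0.51 at 5′ flanks within 300 bp and 0.59 over 500 and up to 1000 bp.

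**Figure D4:**
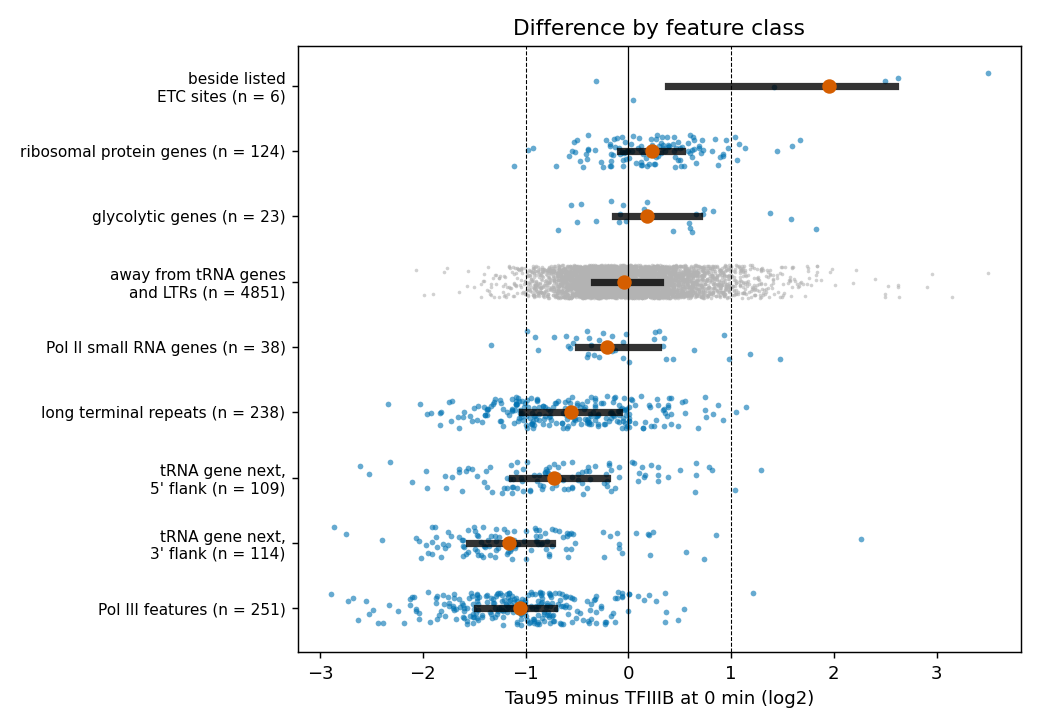
The difference, Tau95 minus TFIIIB at 0 min (log2), is on the x axis for each feature class, with points for features, a thick bar from the lower to the upper quartile and a large dot at the median. Medians run from -1.16 at 3′ flanks of tRNA genes, through -0.04 at features away from tRNA genes and long terminal repeats, to 0.23 at ribosomal protein genes and 1.95 beside the listed ETC sites.

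Long terminal repeats of Ty elements, retrotransposons that insert near Pol III genes, lay between Pol III features and the rest. Their median difference was -0.56 (n = 238), and 64 (26.9%) were at -1 or less, against 6.69% of all features. Sigma repeats had a median of -0.95 (n = 13) and were below zero in all 13, tau repeats had -0.78 (n = 21), delta repeats -0.56 (n = 196) and omega repeats -0.06 (n = 8). Over all long terminal repeats C160 was low against TFIIIB too, with medians of 1.52 for TFIIIB, 0.96 for Tau95 and 1.09 for C160. At sigma repeats these medians were 1.15, 0.75 and 0.50, and at omega repeats 1.55, 1.53 and 1.69. Sigma repeats, of Ty3, lie right upstream of tRNA start sites. The lowest sigma feature, YLRCSIGMA1, had 2.31 for Tau95, 4.54 for Bdp1 and 3.74 for Brf1, a difference of -1.83, and the highest, YPRWSIGMA4, -0.17. After YELCDELTA4, the lowest repeat was YKRWDELTA10 at -2.03, and the highest were YFLWDELTA5 at 1.15 and YORWDELTA14 at 1.05, where the Bdp1 values were -1.31 and -0.82.

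Tau95 exceeded TFIIIB at most of the listed ETC sites. The list held regions between 5 pairs of genes, and 4 of its 6 features were past the limit, each above both subunits, where 1.34% of all features were above both. Their median difference was 1.95. The region between RPB5, a subunit shared by all nuclear RNA polymerases, and CNS1 had the highest difference of all 6023 features. Its Tau95 value was 4.28, its Bdp1 value 0.99, its Brf1 value 0.58 and its C160 value 0.75, a difference of 3.50. Between ADE8, of purine synthesis, and SIZ1, a SUMO ligase, Tau95 was 2.46 beside -0.26 for Bdp1, -0.07 for Brf1 and 0.10 for C160, a difference of 2.63. The region between TFC6, which encodes a TFIIIC subunit itself, and ESC2 had 2.86, 0.40, 0.34 and 0.54 in that order, a difference of 2.5. The long region between RAD2, a DNA repair nuclease, and TNA1 is split into parts. Its part RAD2-0 had 2.95 for Tau95, 1.29 for Bdp1, 1.77 for Brf1 and 0.32 for C160, a difference of 1.41, and part RAD2-1 had -0.31. The region between ARG8 and CDC33 had 0.05 and was dim for all proteins. This pair was listed from general knowledge and may not be the right one for the site, and it is counted in the 4 of 6 and in the median. On the other side of ARG8, which was looked at after the values were seen, the region beside PPM2 had 1.77 for Tau95, -0.87 for Bdp1, -0.85 for Brf1 and -0.82 for C160, a difference of 2.63.

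Further regions outside the Pol III class and the ETC list had Tau95 signal far above TFIIIB signal. The list came from general knowledge and may be incomplete, so known ETC sites may be among these regions. Beside TLG1, a SNARE of Golgi traffic, with SDC1 next, Tau95 was 2.37, Bdp1 -0.46, Brf1 -1.11 and C160 -0.41, a difference of 3.15. Beside GUP1, with SCY1 next, the values were 3.26, 0.58, 0.05 and 0.40, a difference of 2.95. Between RAD14, a DNA damage recognition factor, and RNA170, a small RNA known as a Pol III transcript, Tau95 was 3.41, Bdp1 0.44, Brf1 0.57 and C160 1.92, a difference of 2.91. This region alone among the 10 highest had a C160 value above 1. Between MRPL49 and BCK1 the difference was 2.63, from 2.5 for Tau95, -0.89 for Bdp1 and 0.63 for Brf1. Between MCP1 and WTM2 it was 2.53, from 3.17, 0.96 and 0.32. The region of YKL097C had 2.5 as well, with a Tau95 value of 1.05 and a low Bdp1 value of -2.33. With Tau95 at 2 or more, POR1, the mitochondrial porin, with a tRNA gene next, had 2.26 and PEA2 2.01. At the limit upward, NUP133 and CIT2 lay inside at 1.0028 and 1.0032, and YPL025C and YDR239C outside at 0.9997 and 0.9982.

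A small group of these regions had the excess on the rapamycin arrays too. Of features outside the Pol III class, 35 had a Tau95 value of 2 or more and stood above both subunits by 1 or more at 0 min. Of the 34 with a value after rapamycin, 9 had a difference of 1 or more on the arrays at 30 min, where 4.11% of 5592 features did. These 9 were the regions beside RPB5 (2.64 at 30 min), GUP1 (2.56), TLG1 (2.5), RAD2-0 (2.08), ADE8 (1.63), MRPL49 (1.55), RAD14 (1.5), PEA2 (1.45) and TFC6 (1.23). MCP1 missed the limit at 0.97, and PPM2, whose Tau95 value at 0 min was under 2, had 2.84. C160 was below 1 at 11 of the 35 and at 7 of these 9. The C160 median was 1.33 at the 35 and 0.05 over all features. A value below 1 is thus usual on this array, and these counts do not show a lack of polymerase. In other regions of the 35 the excess was not seen at 30 min: beside RPL31B, for a ribosomal protein, the difference went from 1.67 to -0.94, beside TDH3, a glyceraldehyde phosphate dehydrogenase, from 1.83 to 0.06, and beside PRI2, a primase subunit, from 1.83 to -0.02.

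**Figure D5:**
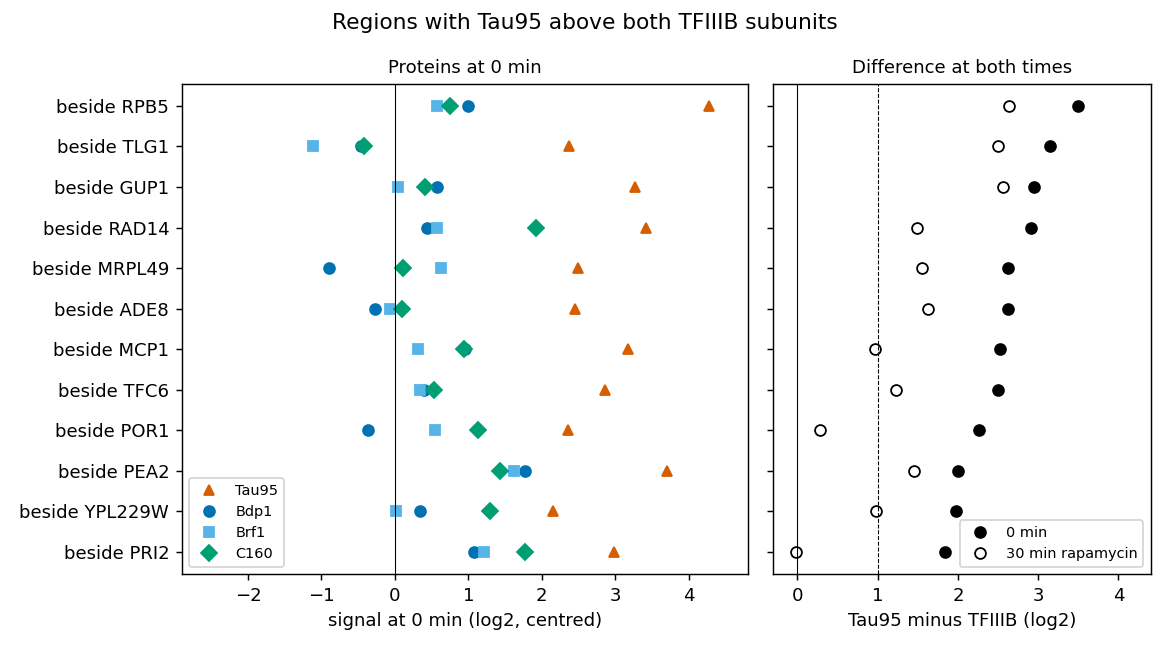
For the 12 regions with the highest difference among those with Tau95 at 2 or more and above both subunits, the left panel gives the centred log2 value of each protein at 0 min and the right panel Tau95 minus TFIIIB at 0 min (filled) and after 30 min of rapamycin (open). Tau95 stands right of Bdp1, Brf1 and C160 in every row, and the open points of RPB5, TLG1 and GUP1 stay between 2.5 and 2.64.

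At Pol III features the lag was smaller on the rapamycin arrays. There the median difference was -0.30 (n = 246), and 33 features (13.4%) were at -1 or less, against 2.83% of all features. The difference was higher than at 0 min at 214 of 246, and at 2431 of 4376 features away from tRNA genes and long terminal repeats. Over all features the median difference was -0.10 at 0 min and 0.05 at 30 min. Median values of Pol III features at 30 min were 2.16 for Tau95, 2.84 for Bdp1 and 2.23 for Brf1. Of the 134 Pol III features at -1 or less at 0 min with values at both times, 25 were so at 30 min too. The Brf1 array at 30 min lacked 639 features, against 122 at 0 min, and whether treatment or array set the change was not tested. Across the 246 features the differences at both times correlated with Pearson's r of 0.33, given as a description.

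Features named for genes of RNA polymerase II were close to zero as groups. A feature named for a reading frame may hold the start or the end of that gene, so these lists do not describe promoters. Features away from tRNA genes and long terminal repeats had a median of -0.04 (n = 4851), with 81 (1.67%) at -1 or less and 198 (4.08%) at 1 or more. Features named for ribosomal protein genes had a median difference of 0.23 (quartiles -0.08 and 0.52, n = 124), and 81 of 124 (65.3%) were above zero, against 42.2% of all features. Past the limit were 7 upward (5.65%, against 3.6%) and 1 downward. RPL31B had 2.74 for Tau95, 0.69 for Bdp1 and 1.43 for Brf1, a difference of 1.67, and RPS4A 1.80, -0.19 and 0.61, a difference of 1.59. RPL14B at -1.12 and RPL35A at -0.98 were lowest. The median of the list was 0.07 on the arrays at 30 min.

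Glycolytic genes had a median of 0.18 (n = 23), with 3 past the limit upward, 13.0% against 3.6% of all features, and 0 downward, against 6.69%. The median was 0.39 with Brf1 alone and 0.31 with quantile normalization. TDH3 had 2.42 for Tau95, 0.32 for Bdp1 and 0.86 for Brf1, a difference of 1.83, and TDH2-1, its paralog's region, 1.59 from 0.18, -1.86 and -0.94. The lowest were HXK1-1, a hexokinase, at -0.69 and PDC6-1, a pyruvate decarboxylase, at -0.56. Small nuclear and nucleolar RNA genes of polymerase II had a median of -0.20 (n = 38), from SNR65 at -1.34 and SNR69 at -0.99 to SNR42 at 1.18 and SNR48 at 1.48.

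The list of genes for Pol III, TFIIIC, TFIIIB and the repressor Maf1 had a median of -0.04 (n = 22). The highest was TFC6 at 2.5, an ETC site. The lowest was RPC17, a polymerase subunit gene with a tRNA gene next, which had 1.77 for Tau95, 3.69 for Bdp1 and 3.28 for Brf1, a difference of -1.71. RPC82 had -0.62 and BRF1 1.11. Beside BRF1, one of the tagged genes, the values were 1.34 for Tau95, -0.11 for Bdp1 and 0.56 for Brf1, and the difference at 30 min was -0.05. BDP1 had 0.51 and RPO31, the gene of C160, -0.04, and no feature was named for TFC1, the gene of Tau95.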

How the data were processed

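The deposited table holds 1 value per feature and array on the log2 scale. Per the labels' design text, the authors ran each experiment in triplicate and set the median enrichment ratio of loci free of Pol III factors to 1. The labels add that DNA of separate precipitations was put on the same slide. No image analysis, background correction or spot filter is stated in the labels. Base 2 was taken because antilogs of base 2 fell most strongly on whole steps, at 0.93 on the Brf1 array at 30 min against 0.17 for base e and 0.18 for base 10, and at 0.10 to 0.31 on the 3 arrays at 0 min, more than for the other bases. The deposited values hold no separate replicates, and whether a value combines the triplicate experiments is unknown. No test was run, the precision of each value is unknown and for arrays their number limits it. Gene names and neighbours were taken from the RefSeq table (assembly R64), where 5525 of 5806 features named for reading frames were found. The labels name no genome build, and no coordinates are printed.

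Arrays were centred on their medians and differences computed with pandas 2.3.3 and NumPy 2.4.6 under Python 3.11.15, checked on simulated arrays. No low-value filter was applied. The named features are the 10 highest and 10 lowest Pol III and other features, the 10 highest other features with Tau95 at 2 or more, those nearest the limit, all other Pol III genes, ETC sites and tagged genes, and the 2 highest and lowest of most other lists. Members and lists were chosen with earlier results of these data known, and ETC sites and intron types come from general knowledge. No feature was named for RNA170. Repeats could not be split by neighbouring tRNA genes. Alternatives changed the centring, scaling, TFIIIB subunit and features used.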

Additional observations from a re-analysis of the deposited data

Results flagged for a closer look

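For 5 lists the median difference, Tau95 minus TFIIIB, had opposite signs on the arrays at 0 min and at 30 min of rapamycin, and whether the times differ was not tested, with 1 array per protein and time. Features away from tRNA genes and long terminal repeats went from -0.04 to 0.07, glycolytic genes from 0.18 to -0.22 and Pol II small RNA genes from -0.20 to 0.15. The 3 tagged genes went from 0.51 to -0.05, and features with a tRNA gene on the lower side alone from -0.17 to 0.08. Over all features the median difference was -0.10 at 0 min and 0.05 at 30 min.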

How the results depend on the processing

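Each median was recomputed under 11 other settings and each count under 13. The Pol III median of -1.05 was -1.17 with Bdp1 alone, -1.48 with arrays scaled to equal spread and -0.66 after quantile normalization, and 0.0221 as a residual from the line of Tau95 on TFIIIB fitted to the Pol III features themselves, which sets it near zero by construction. The residual raised all other features, with medians of 0.83 at other features and 1.16 at ribosomal protein genes, and counts of 16 low and 15 high Pol III features and of 9 low and 2170 high other features. Quantile normalization gave 75 low and 3 high Pol III features and 165 low other features. The median of other features, -0.08, was -0.11 with centring on features away from Pol III genes and long terminal repeats, -0.0129 after quantile normalization, -0.0391 with Bdp1 alone, -0.14 with Brf1 alone, -0.11 with the mean of antilogs and -0.11 (-0.105 before rounding) where the 3 arrays averaged 1 or more. That filter left 0 high Pol III features, 167 low other features and 45 high ones. A limit of 1.5 gave 61 low and 0 high Pol III features and 76 low and 56 high others. Beyond both subunits were 84 low and 0 high Pol III features and 141 low and 81 high others. Bdp1 alone gave 454 high other features, Brf1 alone 0 high Pol III features, and averaging features of 1 name 0. The medians beside ETC sites (1.61 to 2.92) and the flank gap (0.24 with TFIIIB of 2 or more to 0.60 with Brf1 alone) kept their signs under all settings run, including 2 chosen for the flanks after seeing the data, a tRNA gene within 500 bp and TFIIIB of 2 or more. No paired analysis was possible because each group has 1 array. Long terminal repeats were not split by neighbouring tRNA genes, and strands were not named for tRNA features themselves, since the gene table does not pair those names. Signal over background is not given for these values.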

Other observations

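The regions named for centromeres, looked at after the data were seen, stood low for Tau95. Of 15 with a value, 14 had a difference below zero, where 57.8% of all features did, with a median of -0.47 and 4 of the 15 (26.7%) at -1 or less, against 6.69% of all features. CEN14 had -1.39 for Tau95, -0.26 for Bdp1 and 0.29 for Brf1, a difference of -1.40, followed by CEN1 at -1.37 and CEN16 at -1.34, while CEN2 was at 0.41. The medians of these regions were 0.01 for TFIIIB, -0.58 for Tau95 and -0.38 for C160, so the low values were not particular to Tau95. On the arrays at 30 min their median difference was -0.32.

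Among features away from tRNA genes and long terminal repeats with a TFIIIB value of 3 or more, 4 had a difference of -1 or less. They lay beside CYB2 (2.23 for Tau95, 4.22 for TFIIIB), ISC10 (4.02 and 5.78), YLR159W (2.88 and 4.30), whose next gene is a ribosomal RNA gene, and DIA3 (4.31 and 5.35).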
